A study of Mus musculus with 35 samples.

Results

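Goblet cells are the mucus-secreting cells of the airway lining. They pack gel-forming mucins into granules and, together with the secretory club cells from which many of them arise in mouse airways, lay down the mucus layer that cilia move out of the lung. Interleukin 13 and interleukin 4, acting through their shared receptor chain and STAT6, are the best known inducers of goblet cell genes, and the transcription factors SPDEF and FOXA3 act further down that pathway.

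The goblet cell and mucus genes described here are 8 of the 17097 genes measured: Clca1, Agr2, Slc26a4, Muc5ac, Muc5b, Spdef, Foxa3 and Tff2. They were found by symbol in the platform annotation, which gave 10 probe sets for them (2 each for Clca1 and Agr2), and the brightest probe set of each gene stood for it. The genes were chosen with earlier results of these arrays in view, Clca1, Agr2 and Slc26a4 for their differences from clean air. The spread of Clca1 within dose groups was also known by then. Dose differences and that spread are therefore given as a description. The differences carry an SE and the outcome at the threshold but no p-values, other than naming members with an unadjusted p under 0.05 where none passed.

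RNA from whole lungs of adult male wild type C57Bl/6 mice was hybridised to 35 arrays, 5 in each of 7 groups. Each mouse inhaled styrene once, for 6 h, at 0 (air alone), 1, 5, 10, 20, 40 or 120 ppm, and lungs were taken on the following morning. Styrene is an industrial solvent vapour that lung enzymes oxidise to a reactive epoxide. The title labels of 2 arrays, replicate 5 at 1 ppm and replicate 1 at 5 ppm, carry the same number, 15, so whether these are separate animals is not settled by the labels. Their values differed (r = 0.9836 over the 17097 genes, against a median of 0.9915 between arrays of the same dose, which these 2 do not share). Without both arrays every count of members past the threshold was the same as given below.

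All levels below are log2 signals that the authors normalised, and differences are log2 differences between group means from a linear model across all genes (limma), with a threshold of 0.05 on the Benjamini-Hochberg adjusted p over 17097 genes. No count lies behind a signal, and the number of arrays limits the precision. Each array also carries 23 control probe sets for nonspecific hybridisation, and the brightest of them marked the level under which a signal could not be told from nonspecific binding. Where the lower group lay under that level, a fold is written as a lower bound. At 120 ppm these controls were brighter (6.71 to 7.36, against 4.57 to 6.43 in the other 30 arrays), and so were the poly-A controls added to the RNA (7.93 to 8.81, against 6.10 to 7.06).

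The label of goblet cell genes rested on uneven signal. Muc5b lay above the control level on 32 of 35 arrays, Tff2 on 30, Slc26a4 on 18, Agr2 on 15 and Clca1 on 10. Muc5ac and Spdef lay above it on 1 array each and Foxa3 on none. For both genes that array was replicate 4 at 5 ppm, which had the lowest control level (4.57). The mucin most closely tied to goblet cells and its main transcription factors thus gave signals under this strict level on nearly every array. Such signals could not be told from nonspecific binding, which does not show that the genes were silent. In RNA from whole lung, fewer cells of a type and less RNA per cell cannot be told apart.

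Clca1, a secreted protein of mucous cells that processes the mucus gel, was high at 10 ppm and split within other groups. Its log2 signal was 4.09, 4.28, 5.44, 5.78 and 3.92 at 0 ppm and 4.34, 3.48, 4.38, 3.26 and 5.02 at 1 ppm. At 5 ppm it was 5.82, 10.24, 5.02, 6.70 and 5.81, so replicate 2 stood with the 10 ppm group, 3 arrays lay above every clean-air array by less than 1 log2 unit and replicate 3 lay within the clean-air range. At 10 ppm all 5 arrays were high, at 10.17, 10.85, 11.22, 9.80 and 11.69, with no overlap with 0 ppm. At 20 ppm it was 4.91, 9.59, 4.43, 8.75 and 3.77, so replicates 2 and 4 were high and the other 3 lay within or below the range of clean air. At 40 ppm it was 3.97, 4.16, 5.54, 3.96 and 4.34, and at 120 ppm 4.08, 4.00, 3.89, 3.93 and 5.44, both inside or near the clean-air range.

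The mean of Clca1 was 10.75 ± 0.77 at 10 ppm, against 4.70 ± 0.85 at 0 ppm (SD, n = 5 each), a difference of 6.05 (SE 0.83) and at least 25.5-fold. It passed the threshold in that comparison, in the step up from 5 to 10 ppm (4.03, SE 0.83, at least 13.8-fold) and in the step down from 10 to 20 ppm, where it fell by 4.46 (SE 0.83, at least 10.0-fold lower). The call at 20 ppm against 10 ppm was lost in a fit of these 2 groups alone and when any of 6 single arrays was left out (replicates 2, 3 and 5 at 10 ppm, replicates 1, 3 and 5 at 20 ppm), with differences between -5.28 and -3.83 over the 10 fits. The differences of 2.01 at 5 ppm and 1.59 at 20 ppm, each against 0 ppm, did not pass. Among 17097 genes, the within-group SD of Clca1 was the highest at 5 ppm (2.06, against a median gene's 0.160) and the second highest at 20 ppm (2.68, against 0.141). This spread was known when the genes were chosen, so its rank supports nothing further. The dimmer probe set of Clca1, below the control level on every array, ran the same way, 1.09 (SE 0.19) higher at 10 ppm than at 0 ppm.

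**Figure D1:**
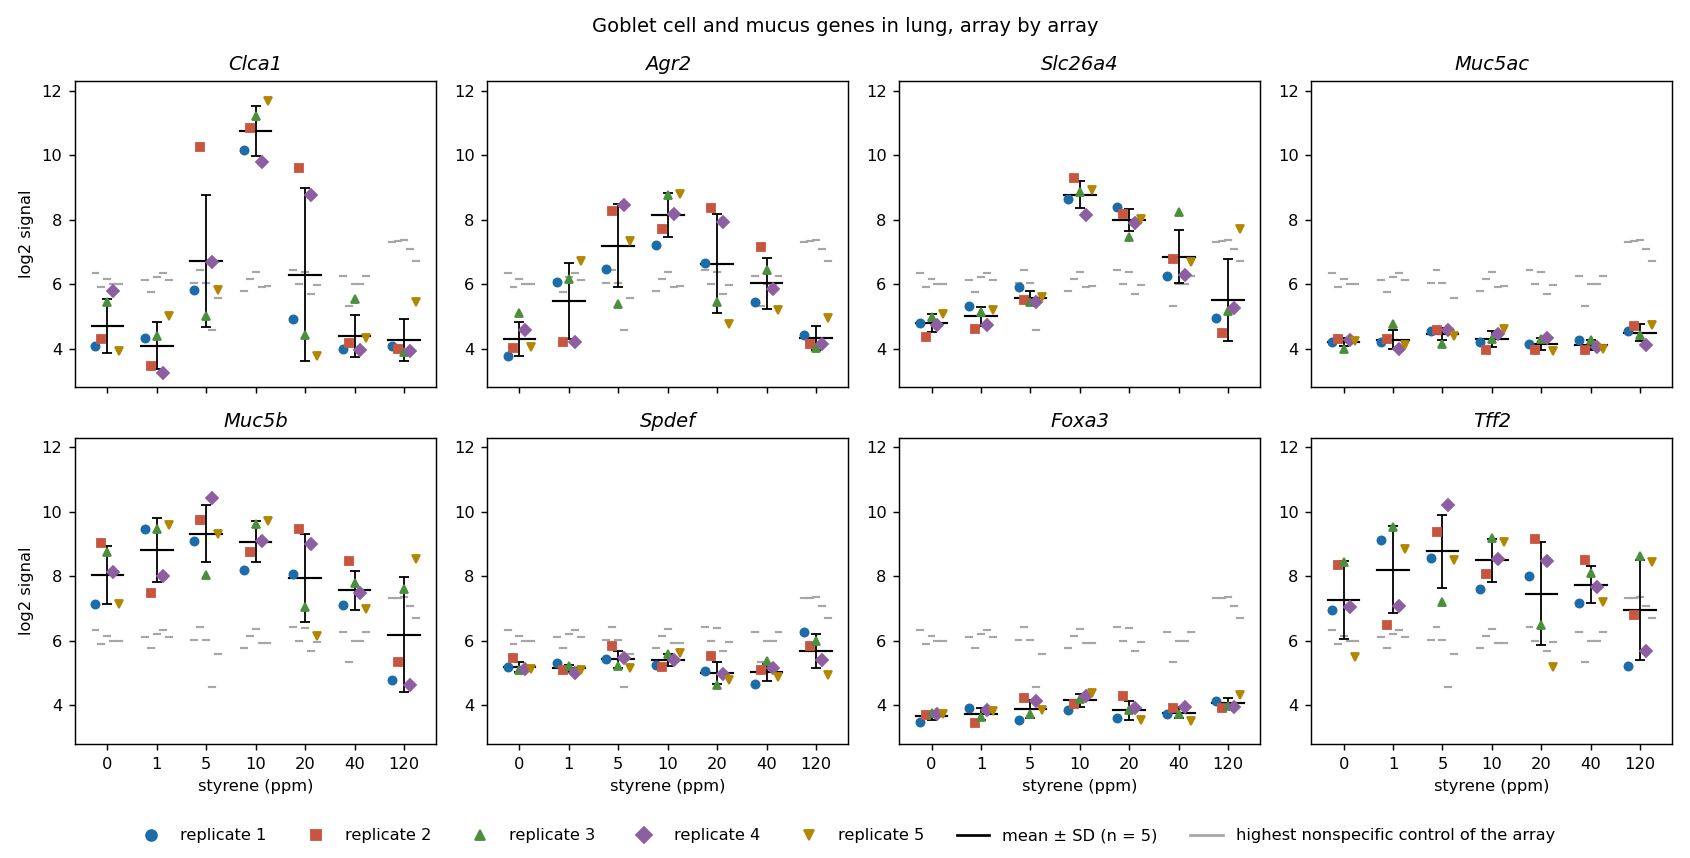
Log2 signal (vertical axis) of each of the 8 genes on every array, by styrene dose in ppm from 0 to 120 (horizontal axis); points are arrays and bars give the group mean ± SD (n = 5), and grey ticks mark the highest nonspecific control of each array. Clca1 lies between 9.80 and 11.69 on all 5 arrays of 10 ppm, while at 20 ppm 2 arrays lie at 8.75 and 9.59 and 3 at 4.91 or lower.

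Slc26a4, the anion exchanger pendrin, which moves chloride and bicarbonate across the airway surface, was higher at 10, 20 and 40 ppm on every array. Its log2 signal was 4.81, 4.36, 4.97, 4.72 and 5.08 at 0 ppm, and 5.31, 4.62, 5.14, 4.72 and 5.19 at 1 ppm. It was 5.91, 5.50, 5.45, 5.44 and 5.60 at 5 ppm, above every clean-air array, though the difference of 0.80 (SE 0.37) did not pass the threshold. It was 8.66, 9.29, 8.84, 8.15 and 8.92 at 10 ppm, while at 20 ppm it was 8.40, 8.16, 7.47, 7.89 and 8.01, and at 40 ppm 6.26, 6.77, 8.25, 6.28 and 6.70. None of these 15 values overlapped with clean air. At 120 ppm it was 4.95, 4.49, 5.15, 5.26 and 7.70, so 4 arrays lay at or near the clean-air level and replicate 5 lay well above it.

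Against a mean of 4.79 ± 0.27 at 0 ppm, Slc26a4 averaged 8.77 ± 0.42 at 10 ppm, 7.99 ± 0.34 at 20 ppm and 6.85 ± 0.81 at 40 ppm (SD, n = 5 each). The differences were 3.98, 3.20 and 2.07 (SE 0.37 each), or at least 6.47-fold, 3.76-fold and 1.71-fold, and all 3 passed the threshold. The step up from 5 to 10 ppm passed as well, at 3.19 (SE 0.37, at least 7.28-fold), and at 120 ppm Slc26a4 fell by 1.34 (SE 0.37) relative to 40 ppm. In that last comparison 4 of the 5 signals at 120 ppm lay under the control level, which was raised in that group, so no fold is given. The order of its group means, from the top, was 10, 20, 40, 5, 120, 1 and 0 ppm, and of these neighbours only 40 and 5 ppm had arrays that did not overlap.

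Agr2, an endoplasmic reticulum disulfide isomerase that mucins need in order to fold, was higher over the widest span of doses of these 3 genes. Its log2 signal was 3.77, 4.02, 5.09, 4.58 and 4.06 at 0 ppm and 6.07, 4.21, 6.16, 4.21 and 6.71 at 1 ppm, where 3 arrays lay above every clean-air array and 2 did not. It was 6.47, 8.28, 5.37, 8.47 and 7.35 at 5 ppm and 7.22, 7.72, 8.78, 8.16 and 8.79 at 10 ppm, with no overlap with clean air in either group. At 20 ppm it was 6.67, 8.37, 5.46, 7.92 and 4.76, at 40 ppm 5.46, 7.14, 6.44, 5.86 and 5.21, and at 120 ppm 4.41, 4.15, 4.01, 4.15 and 4.96. The 20 ppm arrays overlapped with clean air through replicate 5 alone, the 40 ppm arrays did not overlap, and the 120 ppm arrays lay within the clean-air range.

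The mean of Agr2 was 7.19 ± 1.29 in the 5 ppm group, 8.14 ± 0.68 at 10 ppm, 6.64 ± 1.55 at 20 ppm and 6.02 ± 0.78 in the 40 ppm group, against 4.31 ± 0.53 at 0 ppm (SD, n = 5 each). The differences of 2.88, 3.83, 2.33 and 1.72 (SE 0.58 each) passed the threshold, with bounds of at least 2.16-fold, 4.17-fold and 1.47-fold at 5, 10 and 20 ppm. At 40 ppm only 2 of 5 arrays lay above the control level, and no fold is given. The call at 40 ppm was lost in a fit without the 120 ppm group, when probe sets were averaged (1.22) and in 7 of 10 fits that left out a single array (replicates 1, 2, 4 and 5 at 0 ppm, replicates 2, 3 and 4 at 40 ppm), with differences of 1.44 to 1.92. At 120 ppm, where all its signals lay under the control level, Agr2 fell by 1.69 (SE 0.58) relative to 40 ppm, a call that was lost when its probe sets were averaged (-1.09). Its group means ran, from the top, 10, 5, 20, 40, 1, 120 and 0 ppm, with overlapping arrays at every step. The second probe set was 1.89, 2.93, 1.41 and 0.72 higher at 5, 10, 20 and 40 ppm than at 0 ppm (SE 0.46 each). In a fit over all non-control probe sets the first 3 of these passed the threshold and that at 40 ppm did not. Its fall from 40 to 120 ppm (-0.50, SE 0.46) did not pass either. This probe set lay above the control level on 1 array at 5 ppm, 2 at 10 ppm and no others.

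RefSeq promoter sequence (assembly GRCm38.p6) was matched for 4 of the 8 genes, Slc26a4, Agr2, Spdef and Foxa3. The 250 bases upstream of the start of Slc26a4 and of Agr2 are shown because these 2 genes passed the threshold at 3 and 4 doses against clean air. Both are written 5′ to 3′ on the gene's own strand, with TATAAA, the core of a TATA box, in capitals where present. The Slc26a4 window is chr12:31559985-31560234 on the minus strand, and the Agr2 window is chr12:35992675-35992924 on the plus strand. The annotated Slc26a4 gene runs to 31560055, so its window overlaps the gene and lies upstream of a start inside it. The Spdef window (chr17:27728952-27729201) lies wholly inside its annotated gene, which runs to 27731003.
Slc26a4: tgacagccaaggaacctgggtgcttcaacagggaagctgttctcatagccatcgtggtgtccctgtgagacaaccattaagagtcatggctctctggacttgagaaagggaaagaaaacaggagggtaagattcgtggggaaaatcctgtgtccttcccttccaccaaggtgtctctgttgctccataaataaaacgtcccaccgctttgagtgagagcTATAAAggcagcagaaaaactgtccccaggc
Agr2: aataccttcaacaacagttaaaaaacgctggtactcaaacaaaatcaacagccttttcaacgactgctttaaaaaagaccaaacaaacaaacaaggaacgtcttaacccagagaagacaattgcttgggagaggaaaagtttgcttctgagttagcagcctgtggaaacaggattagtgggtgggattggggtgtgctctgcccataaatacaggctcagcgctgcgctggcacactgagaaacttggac
Both strands of each window were searched for 5 motifs, none contained in another: TTC and GAA with 4 bases between them (the spaced palindrome bound by STAT6), TGTTTAC (a forkhead core), AGGATG (a core of the ETS type bound by SPDEF), GAAAC and GAAA with 1 base between them (an interferon-stimulated response core) and TATAAA. Slc26a4 held TATAAA at -31 to -26 from its start, as Foxa3 did at -36 to -31, and no other motif was matched in the 4 windows. Among 32851 mouse promoters of the same length, 12.368% held TATAAA, 5.854% the STAT6 palindrome, 3.166% TGTTTAC, 14.082% AGGATG and 0.569% the interferon-stimulated core. A match of letters is not a measured binding site, and the absence of one in these windows says nothing about a factor.

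Muc5b, the gel-forming mucin made by secretory cells of normal mouse airways, passed the threshold only at 120 ppm, where it was lower. Its log2 signal was 7.13, 9.04, 8.75, 8.13 and 7.14 at 0 ppm, 9.47, 7.49, 9.46, 8.01 and 9.60 at 1 ppm, and 9.11, 9.74, 8.04, 10.41 and 9.31 at 5 ppm. At 10 ppm it was 8.21, 8.74, 9.62, 9.10 and 9.71, at 20 ppm 8.06, 9.46, 7.05, 8.99 and 6.14, and at 40 ppm 7.10, 8.47, 7.78, 7.47 and 6.99. All of these groups overlapped with clean air. At 120 ppm it was 4.80, 5.36, 7.60, 4.64 and 8.55, so 3 arrays lay below every clean-air array and 2 lay within their range.

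The mean of Muc5b was 6.19 ± 1.77 at 120 ppm, against 8.04 ± 0.89 at 0 ppm (SD, n = 5 each), and it fell by 1.85 (SE 0.64), at least 1.38-fold. Over 17097 genes, its SD was the highest in the 120 ppm group. Its differences of 0.77, 1.28 and 1.04 at 1, 5 and 10 ppm and of -0.10 and -0.48 at 20 and 40 ppm did not pass the threshold (SE 0.64 each).

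Tff2, a trefoil peptide secreted with mucins, passed the threshold in none of the 11 comparisons between doses. At 0 ppm it ranged between 5.50 and 8.46 over the 5 arrays, at 1 ppm between 6.50 and 9.54, and at 5 ppm between 7.20 and 10.22. It ranged between 7.60 and 9.18 at 10 ppm, 5.18 and 9.15 at 20 ppm, 7.18 and 8.50 at 40 ppm, and 5.22 and 8.64 at 120 ppm, so every group overlapped with clean air. Its largest difference was 1.51 (SE 0.71) at 5 ppm against 0 ppm.

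Muc5ac, the gel-forming mucin that goblet cells add in irritated or allergic airways, stayed between 3.93 and 4.77 on every array. Its differences at 1 to 40 ppm against 0 ppm lay between -0.08 and 0.26 (SE 0.13) and did not pass. Spdef, the ETS factor that drives goblet cell differentiation, lay between 4.63 and 6.26, with differences of -0.20 to 0.22 at 1 to 40 ppm that did not pass (SE 0.18). Foxa3, a forkhead factor of mucous cells, averaged 4.15 ± 0.21 at 10 ppm, against 3.67 ± 0.12 at 0 ppm (SD, n = 5 each). That difference of 0.47 (SE 0.13) passed the threshold with no overlap between the arrays, at a signal under the control level throughout. It was lost without replicate 1 at 0 ppm (0.42), without replicate 5 at 10 ppm (0.41) or with a fold of 1.5 required.

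At 120 ppm against 0 ppm these 3 dim genes passed the threshold in the upward direction, Muc5ac by 0.31 (SE 0.13), Spdef by 0.49 (SE 0.18) and Foxa3 by 0.39 (SE 0.13). All 15 of their signals at 120 ppm lay under the control level, and the median gene was 0.155 higher in that comparison. The call for Muc5ac was lost in 5 of 10 fits that left out a single array (replicates 1 and 3 at 0 ppm, replicates 1, 2 and 5 at 120 ppm), with differences of 0.25 to 0.41, and that for Spdef was lost without replicate 1 at 120 ppm (0.34). After repeated quantile normalization the difference was 0.94 for Spdef and 0.24 for Foxa3, whose call was lost, as it was with array weights (0.33). The brighter controls on those arrays move with these differences, and their part was not tested.

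Counted over the 8 genes, 0 passed the threshold at 1 ppm against 0 ppm by limma, as did 0% of all genes in either direction, and 0 had an unadjusted p under 0.05. At 5 ppm 1 was higher, beside 1.13% of all genes, and at 10 ppm 4 were higher, beside 5.17%. At 20 ppm 2 were higher, beside 6.45%, and at 40 ppm 2, beside 7.69%. No member was lower at these 5 doses, where at 5, 10, 20 and 40 ppm 0.0234%, 6.62%, 6.74% and 5.04% of all genes were. At 120 ppm 3 were higher and 1 lower, beside 42.9% and 31.9% of all genes. The median difference of the 8 genes was 1.04, 1.13, 0.18 and 0.003 at 5, 10, 20 and 40 ppm, and of all genes 0.0012, -0.02, -0.02 and 0.01. The genes were chosen on such differences, so the counts support nothing further.

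Between neighbouring doses, 2 genes were higher at 10 ppm than at 5 ppm and none lower (1.5% and 3.14% of all genes), and 1 was lower at 20 ppm than at 10 ppm and none higher (0.0468% and 0.0643%). At 5 ppm against 1 ppm limma called 0 of 8 (1.61% of all genes higher, 0.357% lower), with Agr2 and Clca1 at an unadjusted p under 0.05. At 40 ppm against 20 ppm it also called 0 of 8 and 0% of all genes, with Clca1 and Slc26a4 at an unadjusted p under 0.05, and a fit that weighted arrays by their quality called Slc26a4 there (1 of 8). At 120 ppm against 40 ppm 3 genes were higher, Muc5ac (0.39), Spdef (0.66) and Foxa3 (0.30), and Agr2 and Slc26a4 were lower, beside 39.8% of all genes higher and 31.1% lower. A straight slope on log2(dose + 1 ppm) over 0 to 40 ppm passed for Slc26a4 (0.604 per doubling, SE 0.103) and Agr2 (0.384, SE 0.132), beside 13.2% of all genes rising and 12.9% falling. The slope of Agr2 was lost without replicate 1, 2, 4 or 5 at 0 ppm.

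**Figure D2:**
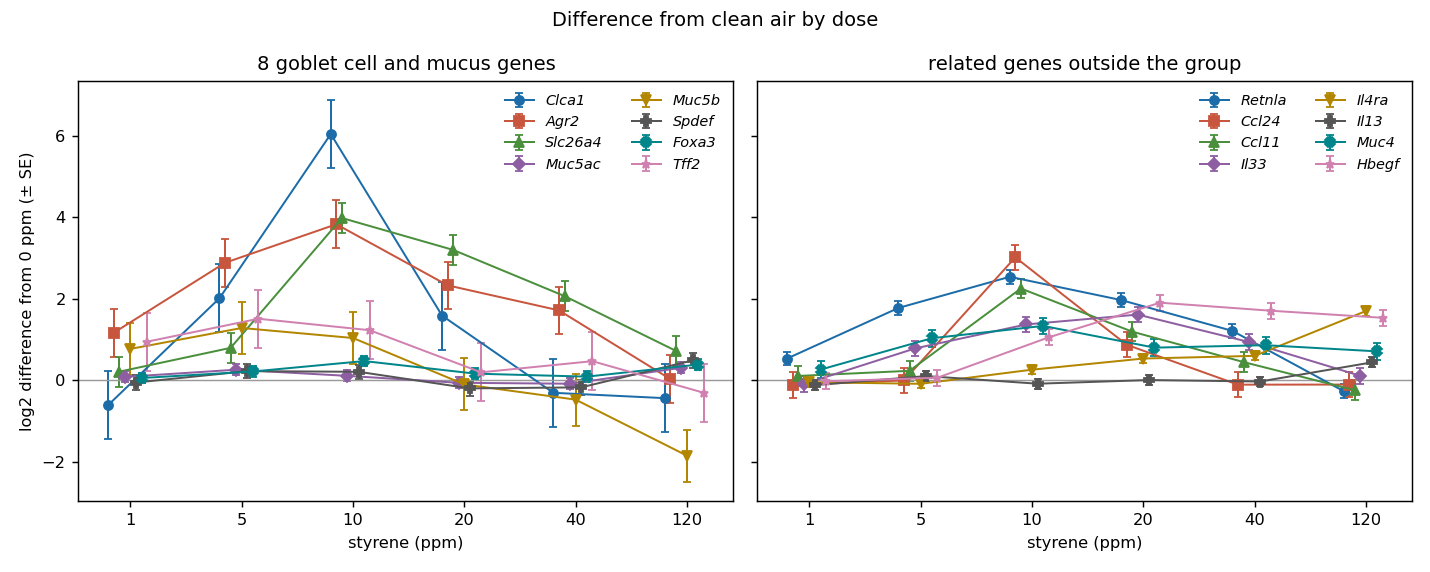
Group mean log2 signal minus the 0 ppm mean (vertical axis) at each dose in ppm (horizontal axis), with bars of 1 SE from the fit across all genes, for the 8 genes on the left and 8 related genes on the right. Clca1 reaches 6.05 at 10 ppm and is at -0.31 and -0.44 at 40 and 120 ppm, Slc26a4 passes through 3.98, 3.20 and 2.07 at 10, 20 and 40 ppm, and Muc5b ends at -1.85 at 120 ppm. On the right, Retnla, Ccl24 and Ccl11 are at 2.54, 3.02 and 2.25 at 10 ppm, and Il13 stays near 0 up to 40 ppm.

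Within a dose, arrays with more Clca1 had more of most of the other genes. At 20 ppm, replicates 2 and 4, which were high in Clca1, were also the highest 2 of 5 in Agr2 (8.37 and 7.92), Muc5b (9.46 and 8.99) and Tff2 (9.15 and 8.46). To separate this from the dose response, each array's deviation from its dose mean was used, over 35 arrays, with a two-sided permutation test that shuffled arrays within doses (100000 resamples) and Benjamini-Hochberg adjustment over the 7 pairs with Clca1. The correlation of the deviations with those of Clca1 was r = 0.781 for Agr2 (permutation p = 2e-05, adjusted 0.00014; rho = 0.765, p = 2e-05) and 0.647 for Foxa3 (permutation p = 0.00071, adjusted 0.00166; rho = 0.561, p = 0.00281). For the secreted products it was 0.609 for Muc5b (permutation p = 0.00019, adjusted 0.000665; rho = 0.630, p = 0.00019) and 0.595 for Tff2 (permutation p = 0.00134, adjusted 0.00235; rho = 0.613, p = 0.00048). Since the spread of Clca1 within doses was known when the genes were chosen, the correlations with Clca1 are also given as a description. Without the 2 arrays farthest from their dose mean in Clca1, r was 0.764 for Agr2, 0.493 for Foxa3, 0.625 for Muc5b and 0.593 for Tff2.

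For the other 3 genes the correlation with Clca1 depended on the arrays included or did not pass. Spdef gave r = 0.393 (permutation p = 0.038, adjusted 0.0444; rho = 0.387, p = 0.0342), which was 0.148 without the 2 most extreme arrays (permutation p = 0.411) and 0.657 without the 120 ppm group (adjusted permutation p = 0.00357). Slc26a4 gave r = 0.290 (permutation p = 0.0112, adjusted 0.0157; rho = 0.342, p = 0.0397) and 0.255 without the 120 ppm group (adjusted permutation p = 0.114). Muc5ac gave r = 0.205 (permutation p = 0.236; rho = 0.216, p = 0.242) and did not pass. Differences between these correlations were not tested. Clca1 lay above the control level on 10 of the 35 arrays and Foxa3 on none, so much of this covariation, and all of that of Foxa3, is in signals that could not be told from nonspecific binding.

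Among all 28 pairs of the 8 genes, the closest was Muc5b with Tff2, both secreted into mucus, at r = 0.944 and rho = 0.958 within doses (permutation p = 1e-05 for each, the smallest that 100000 resamples can give, adjusted 9.33e-05 over the 28 pairs). Without the 2 arrays farthest from their dose mean in Muc5b, r was 0.952. Agr2 correlated with Muc5b at r = 0.764 (rho = 0.756) and with Tff2 at r = 0.776 (rho = 0.750), again with permutation p = 1e-05 for each, the smallest possible. Slc26a4 passed the threshold over the 28 pairs with Clca1 alone by r (adjusted permutation p = 0.0285) and with none by rho (0.078 for Clca1).

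**Figure D3:**
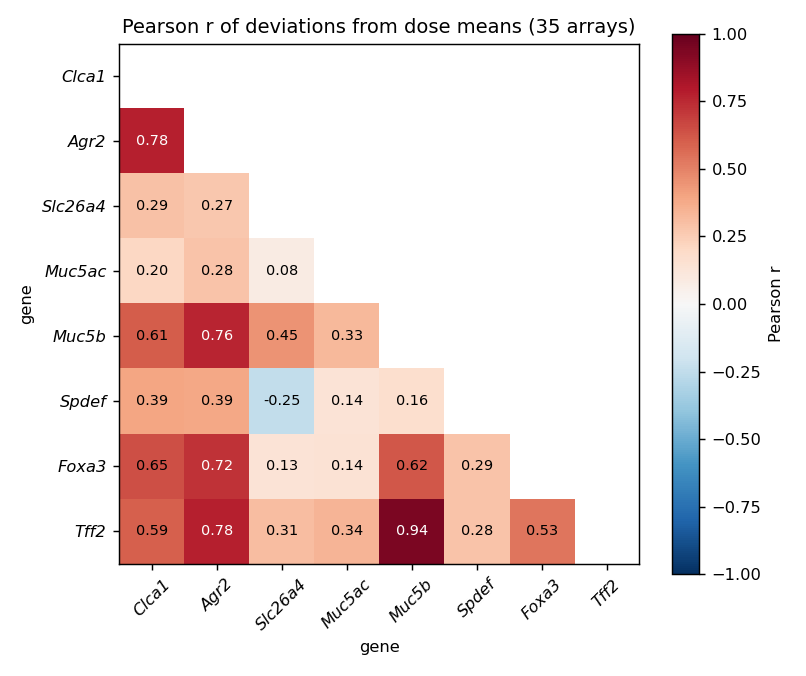
Pearson correlation of within-dose deviations between each pair of the 8 genes over 35 arrays, by colour and printed value. Muc5b and Tff2 form the closest pair at 0.944, Agr2 lies at 0.764 or above with Clca1, Muc5b and Tff2, and Slc26a4 does not go above 0.446 with any gene.

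Summed levels of markers of other airway cells moved with these genes within doses. The summed level of 10 club cell markers, all of them measured and none below the control level on every array, correlated with Muc5b at r = 0.911 (rho = 0.927), Tff2 at 0.880 (rho = 0.905), Agr2 at 0.839 (rho = 0.810) and Clca1 at 0.602 (rho = 0.608). Over the 48 marker tests, the adjusted permutation p was 0.00016 for Muc5b, Tff2 and Agr2 and 0.011 for Clca1. Without the 2 arrays farthest from their dose mean in the gene, these r were 0.911, 0.864, 0.799 and 0.606. The summed level of 9 ciliated cell markers correlated with Muc5b at 0.712 (rho = 0.651, adjusted permutation p = 0.00084), Tff2 at 0.535 (rho = 0.559, adjusted p = 0.0147) and Agr2 at 0.360 (rho = 0.385, adjusted permutation p = 0.0326 for r and 0.129 for rho). That of 6 basal cell markers, of which Trp63, Krt14 and Ngfr lay below the control level on every array, correlated with Agr2 at 0.700 (rho = 0.728), Clca1 at 0.601 (rho = 0.520), Tff2 at 0.518 (rho = 0.594) and Muc5b at 0.513 (rho = 0.584), with adjusted permutation p of 0.00317, 0.0072, 0.00948 and 0.00384. For Agr2, Clca1, Tff2 and Muc5b, the basal r were 0.691, 0.4075, 0.515 and 0.553 without the 2 arrays farthest from their dose mean in the gene. The ciliated r for Muc5b, Tff2 and Agr2 were 0.623, 0.522 and 0.319 on the same terms. Krt5, another of the basal cell markers, lay above the control level on 1 of 35 arrays. The summed levels add linear signals, so bright markers that vary between arrays weigh most. At 0 ppm Scgb3a1 had an SD of 0.78 around a mean of 12.21. The brighter club cell markers Scgb1a1, Cyp2f2, Scgb3a2 and Hp had SDs of 0.04 to 0.09. Sec14l3 alone averaged 12.83 at 0 ppm, where the ciliated sum averaged 13.23. How far each correlation rests on a single marker was not tested. The part of cell make-up or of the piece of lung sampled in these correlations was not tested.

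**Figure D4:**
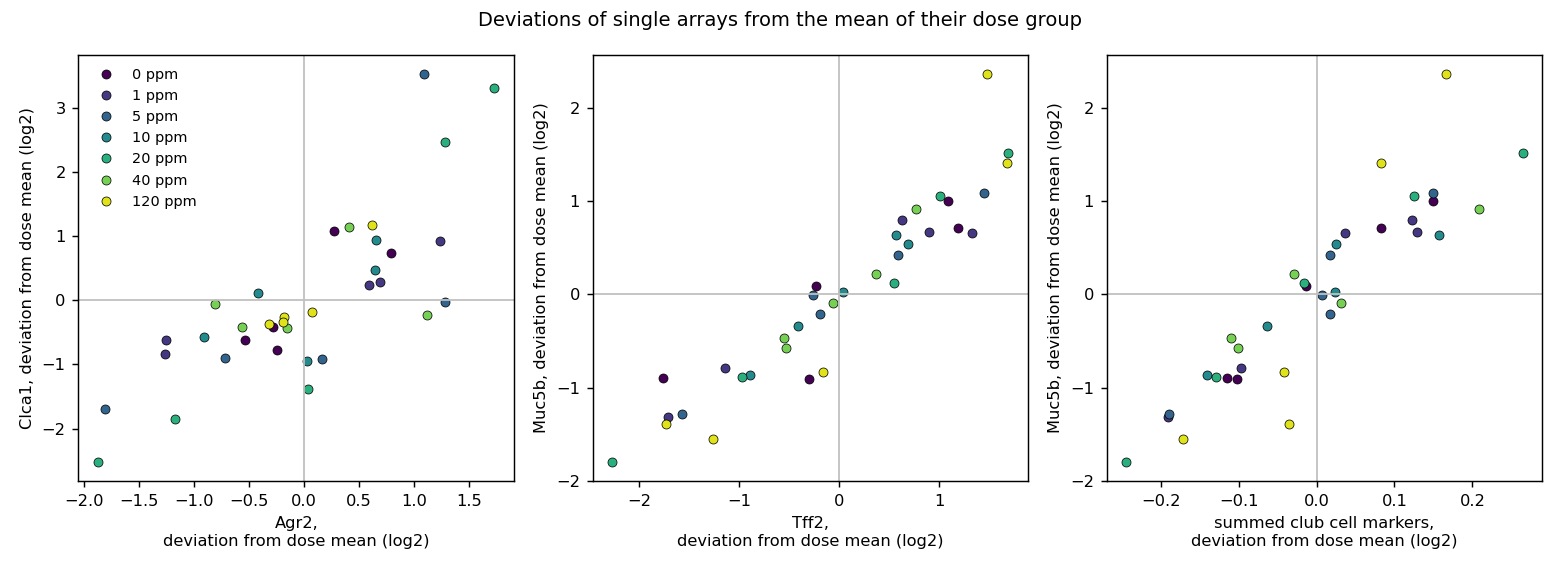
Deviation of each of the 35 arrays from the mean of its dose group in log2 signal, coloured by dose: Clca1 (vertical) against Agr2 (horizontal) on the left, Muc5b against Tff2 in the middle, and Muc5b against the summed club cell markers on the right. Points run from lower left to upper right in all 3 panels, at r = 0.781, 0.944 and 0.911.

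Across doses, more of the club cell markers were lower the higher the dose. Their summed level was 15.51 to 15.78 at 0 ppm, 15.52 to 15.84 at 1 ppm and 15.48 to 15.82 at 5 ppm, then 15.30 to 15.60 at 10 ppm, 15.05 to 15.56 at 20 ppm, 15.13 to 15.45 at 40 ppm and 14.79 to 15.13 at 120 ppm. Of the 10 markers, 4, 5, 8 and 9 were lower at 10, 20, 40 and 120 ppm than at 0 ppm, and 1 was higher at 40 ppm, where 6.62%, 6.74%, 5.04% and 31.9% of all genes were lower and 7.69% higher at 40 ppm. Scgb1a1, the main club cell secretory protein, fell by 0.15 at 40 ppm (SE 0.05, adjusted p = 0.045), from 13.75 ± 0.05 at 40 ppm against 13.90 ± 0.04 at 0 ppm (SD, n = 5 each), close to the highest signal on any array (13.97). Markers of tissues that could be carried along with a lung were dim: 7 of 7 cartilage, 6 of 6 oesophagus, 6 of 8 stomach and 4 of 5 thyroid markers lay below the control level on every array. Neither these lists nor those of neutrophils, T cells, eosinophils and mast cells, tuft and neuroendocrine cells or alveolar type 2 cells passed the threshold in their correlation with any of Clca1, Agr2, Muc5b and Tff2. Here too 7 of 8 eosinophil and mast cell and 3 of 4 tuft and neuroendocrine markers lay below the control level on every array. The alveolar type 2 marker Sftpc averaged 13.83 at 0 ppm, close to the highest signal. For these lists a missing correlation therefore says little about the cells.

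The genes whose level was most like that of Clca1 over the 30 arrays of 0 to 40 ppm, by Pearson correlation, were Scin, an actin-severing protein (0.842), Pdia4, a disulfide isomerase (0.837), Agr2 (0.816), Parp14, an ADP-ribosyltransferase (0.797), Sprr2a1, a small proline-rich protein (0.795), Gm20559 (0.793), Sdf2l1, a chaperone cofactor of the endoplasmic reticulum (0.782), and Foxa3 (0.771). This measure pools the dose groups, so it mixes differences between doses with those between arrays of the same dose. Clca1 differed widely between dose groups, so a high r here need not mean that a gene followed Clca1 within a dose. Scin, like Foxa3, lay below the control level on all 35 arrays. By deviations within doses, over 35 arrays, they were Agr2 (0.781), Cdh26, a cadherin (0.728), Cldn22, a claudin (0.695), Krt5, a keratin of basal cells (0.679), Fcgbp, a mucus protein (0.676), Oit1 (0.668), Lypd2 (0.667) and Chad, a small leucine-rich repeat protein (0.659). Of these, Cdh26 and Krt5 lay above the control level on 1 array each, Cldn22 on 4 and Oit1 on 8. Krt5 and Chad are also among the basal and club cell markers summed above. Agr2 was the only gene in both lists of 8.

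The known inducers Il13 and Il4 had little signal, while several other genes listed with the same inflammatory axis rose. The gene lists used here and below were chosen with earlier results of these data known, so their counts and adjusted p are descriptions. Il13 and Il4 lay below the control level on all 35 arrays and did not pass at 1 to 40 ppm, with adjusted p of 0.783 or more for Il13 and 0.573 or more for Il4. The shared receptor chain Il4ra was 0.53 higher at 20 ppm (SE 0.11, adjusted p = 0.000943) and 0.60 higher at 40 ppm (SE 0.11, adjusted p = 0.00026) but did not pass at 10 ppm (0.26, adjusted p = 0.143). Stat6 fell by 0.38 at 20 ppm (SE 0.12, adjusted p = 0.0243) and passed at no other dose.

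Retnla, a secreted protein of macrophages and epithelium in interleukin 4 and 13 responses, averaged 12.29 ± 0.14 in the 5 ppm group, 13.05 ± 0.06 at 10 ppm, 12.48 ± 0.18 at 20 ppm and 11.73 ± 0.37 in the 40 ppm group, against 10.51 ± 0.27 at 0 ppm (SD, n = 5 each). It was 1.78, 2.54, 1.97 and 1.21 higher (SE 0.17, adjusted p at most 3.65e-06), all 5 arrays of each dose lying above clean air. The eosinophil attractants Ccl24 and Ccl11 were higher at 10 ppm, Ccl24 by 3.02 (SE 0.31, at least 2.15-fold, adjusted p = 1.27e-08) and Ccl11 by 2.25 (SE 0.24, at least 1.15-fold, adjusted p = 2.63e-08). Ccl11 was also 1.19 higher at 20 ppm (adjusted p = 0.000642), and at 40 ppm neither passed (adjusted p = 0.903 for Ccl24 and 0.263 for Ccl11). Il33, an epithelial alarm cytokine, was 0.78, 1.37, 1.61 and 0.94 higher at 5, 10, 20 and 40 ppm (SE 0.19, adjusted p at most 0.0271). Chil4, a chitinase-like protein of the same responses, did not pass at 1 to 40 ppm and fell by 2.06 at 120 ppm (SE 0.13, adjusted p = 5.19e-15). Of 21 genes of this axis measured, 2, 5, 4 and 3 were higher at 5, 10, 20 and 40 ppm, and 1 was lower at 20 ppm, beside 1.13%, 5.17%, 6.45% and 7.69% of all genes higher and 6.74% lower at 20 ppm. Their median difference was 0.198 at 10 ppm and -0.03 at 40 ppm.

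Other mucus proteins moved in small numbers. Of 19 measured, 3 were higher at 5 ppm, 2 at 10 ppm and 1 at 20 ppm, and at 40 ppm 2 were higher and 2 lower. Of all genes 1.13%, 5.17%, 6.45% and 7.69% were higher at these doses and 5.04% lower at 40 ppm. Muc4, a membrane mucin, was 1.03, 1.34, 0.80 and 0.86 higher at 5, 10, 20 and 40 ppm (SE 0.20, adjusted p at most 0.00631), although only 2 of its 5 signals at 10 ppm lay above the control level. Fcgbp, a mucin-binding protein, averaged 7.44 ± 0.56 at 10 ppm, against 6.69 ± 0.24 at 0 ppm (SD, n = 5 each; difference 0.75, adjusted p = 0.0292). At 40 ppm Pigr, which carries antibodies into mucus, fell by 0.93 (SE 0.31, adjusted p = 0.0465) and Clca3a1 was 0.67 higher at a signal under the control level (SE 0.17, adjusted p = 0.00706). Muc1 and Muc20, membrane mucins named after their values were seen, were higher at 5 ppm by 0.36 (adjusted p = 0.0163) and 0.63 (adjusted p = 0.0449), and Muc20 fell by 0.65 at 40 ppm (adjusted p = 0.00585).

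Enzymes that add sugars to mucins were called in both directions at 10 ppm, 3 higher and 2 lower of 19 measured, and at 20 and 40 ppm 3 were higher and 0 lower. Of all genes 5.17%, 6.45% and 7.69% were higher and 6.62%, 6.74% and 5.04% lower at these doses. St3gal1, a sialyltransferase, was 0.85, 0.75 and 0.66 higher at 10, 20 and 40 ppm (SE 0.14, adjusted p at most 0.000813). Galnt3, which starts mucin sugar chains, was 0.58 and 0.72 higher at 10 and 20 ppm (SE 0.16, adjusted p = 0.0155 and 0.00228). B3gnt3, which extends such chains, was 0.72 higher at 40 ppm (SE 0.17, adjusted p = 0.00364), and Chst4, a sulfotransferase, fell by 1.05 at 10 ppm (SE 0.21, adjusted p = 0.000466) at a signal under the control level in all 5 exposed lungs.

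Of 14 mucin folding and granule release genes, 1 was lower at 10 ppm, 2 were higher and 1 lower at 20 ppm, and 2 were higher at 40 ppm, with 6.62% and 6.74% of all genes lower at 10 and 20 ppm and 6.45% and 7.69% higher at 20 and 40 ppm. Vamp8, a SNARE protein of mucin granules, fell by 0.47 at 10 ppm (SE 0.07, adjusted p = 8.37e-06) and by 0.27 at 20 ppm (adjusted p = 0.00573). Unc13d, which primes granules for release, was 0.38 and 0.49 higher at 20 and 40 ppm (SE 0.11, adjusted p = 0.0212 and 0.00286). P2ry2, the ATP receptor that triggers release, was 0.72 and 0.79 higher at the same doses (SE 0.17, adjusted p = 0.0031 and 0.00137) at signals under the control level. Ern2, an endoplasmic reticulum stress sensor of mucous cells, did not pass at any dose (0.44 at 10 ppm, SE 0.16, adjusted p = 0.0749).

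Of 14 airway ion and fluid transport genes, 1 was higher and 1 lower at 10 and at 20 ppm, and 2 were higher and 1 lower at 40 ppm. These are near the shares of all genes at 10 ppm (5.17% higher, 6.62% lower) and 20 ppm (6.45% and 6.74%), with 7.69% and 5.04% at 40 ppm. Aqp5, a water channel, averaged 11.62 ± 0.06 at 10 ppm, against 11.21 ± 0.03 at 0 ppm (SD, n = 5 each), and was 0.41, 0.43 and 0.43 higher at 10, 20 and 40 ppm (SE 0.07, adjusted p at most 9.21e-05). Scnn1b, a subunit of the epithelial sodium channel, fell by 0.72, 0.72 and 0.59 at these doses (SE 0.12, adjusted p at most 0.000769), while its subunit Scnn1a was 0.32 higher at 40 ppm (SE 0.09, adjusted p = 0.0192).

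Of 22 other regulators of goblet cells, 1, 2, 3 and 5 were higher at 5, 10, 20 and 40 ppm and 1, 3 and 2 were lower at 10, 20 and 40 ppm. The shares of all genes were 1.13%, 5.17%, 6.45% and 7.69% higher and 6.62%, 6.74% and 5.04% lower. Hbegf, a ligand of the epidermal growth factor receptor, averaged 9.79 ± 0.42 at 10 ppm, 10.64 ± 0.29 at 20 ppm and 10.44 ± 0.53 at 40 ppm, against 8.73 ± 0.20 at 0 ppm (SD, n = 5 each), differences of 1.05, 1.91 and 1.71 (SE 0.20, adjusted p at most 0.000268). The epithelial ETS factors went opposite ways: Elf3 was 0.72, 0.63, 0.55 and 0.63 higher at 5, 10, 20 and 40 ppm (SE 0.15, adjusted p at most 0.0122), and Elf5 fell by 1.07, 1.02 and 0.88 at 10, 20 and 40 ppm (SE 0.15, adjusted p at most 7.85e-05). Hey1, a Notch target, fell by 0.86 and 0.75 at 20 and 40 ppm (SE 0.19, adjusted p = 0.00187 and 0.00652). Foxa2, a forkhead factor that restrains goblet cell differentiation, did not pass at 1 to 40 ppm, with differences of -0.20 to 0.20 (SE 0.11, adjusted p at least 0.302). Nkx2-1, the lung lineage factor, did not pass at any dose (adjusted p at least 0.38), at signals under the control level on all but 1 array.

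At 120 ppm all 6 of these lists held genes that moved either way. Of the type 2 axis 6 were higher and 3 lower, of the mucus proteins 6 and 5, of the glycosylation enzymes 6 and 8, of the folding and release genes 5 and 6, of the transport genes 4 and 6 and of the regulators 7 and 9, beside 42.9% of all genes higher and 31.9% lower. The median differences of these lists at 120 ppm lay between -0.292 (glycosylation enzymes) and 0.098 (folding and release genes), against 0.155 for all genes. At 1 ppm 0 genes of the 6 lists passed by limma, and 8 had an unadjusted p under 0.05.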

How the data were processed

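Whole-lung RNA was hybridised to 35 arrays (Affymetrix HT MG-430 PM). The deposited values are log2 signals that the authors normalised; RMA and Partek are named in the submitters' processing notes, with no version or setting, and scan dates and plates were not given in the sources used. Of 45141 probe sets, 104 are controls, 28898 have 1 gene symbol, 551 several and 15588 are unlisted. Each of 17097 genes was represented by its brightest probe set on average (7180 genes had several).

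The members and lists were chosen with earlier results of these data known. One mean per dose was fitted with limma 3.58.1 (R 4.3.3; lmFit and eBayes over the 35 arrays, 28 residual and 4.617 prior degrees of freedom), with two-sided p-values adjusted by Benjamini-Hochberg over all genes. Nothing in the labels says more than that replicates are biological. A bound for a fold sets, per array, the higher of the signal and the brightest nonspecific control in the dimmer group. Named genes are the 8 members, up to 4 genes per pathway list with the largest absolute differences among those past the threshold at 10, 20 or 40 ppm, known activators and targets (Il13, Il4, Il4ra, Stat6, Foxa2, Nkx2-1, Ern2, Chil4, Retnla, Scgb1a1), and the 8 genes most correlated with Clca1 by each of 2 measures. Summed marker levels are log2 of summed linear signals. Tested on simulated data for 10 ppm against 0 ppm over 17097 genes, the fit called 10%, 78%, 90% and 100% of genes changed 1.25-, 1.5-, 2- and 4-fold, and 11 of 16897 unchanged genes. Alternatives covered probe set choice, dim genes, thresholds, variance, weights, scaling, groups, slopes, a replicate block and leaving out each array.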

Additional observations from a re-analysis of the deposited data

Results flagged for a closer look

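Some arrays stood apart from the other 4 of their dose by Dixon's test, in which the gap to the nearest array is divided by the range of the group (critical value 0.71 for 5 arrays). Of the 56 groups tested (8 genes at 7 doses) 6 held such an array, and chance gives about 1 in 20. Replicate 3 at 40 ppm was high in both Clca1 (5.54, next array 4.34, ratio 0.764) and Slc26a4 (8.25, next array 6.77, ratio 0.744). Replicate 5 at 120 ppm was also high in both, at 5.44 in Clca1 (next array 4.08, ratio 0.879) and 7.70 in Slc26a4 (next array 5.26, ratio 0.761). Both Clca1 values lay under the nonspecific control level. Within its dose group, replicate 5 at 120 ppm had the lowest nonspecific control level (6.71) and the lowest poly-A control level (7.93). The part of these in its signals was not tested. At 0 ppm replicate 2 was high in Spdef (5.46, next array 5.19, ratio 0.741) and replicate 1 was low in Foxa3 (3.47, next array 3.70, ratio 0.806), again at signals under the control level.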

How the results depend on the processing

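No difference of a member past the threshold changed sign under any alternative run. Of 152 counts of members past the threshold under other settings, 136 stayed within 1.5 times the value given, and of 257 differences of single members, 236 kept their side of the threshold. At 40 ppm against 0 ppm 1 gene instead of 2 passed, Agr2 being lost, with each gene's probe sets averaged, over all non-control probe sets, with a trended and robust variance, after repeated quantile normalization and without the 120 ppm group. At 120 ppm against 0 ppm the count of 4 became 1 with dim genes left out or a fold of at least 1.5 required, and 2 with only the groups compared; at 120 ppm against 40 ppm the 5 became 3 under the first 2 of these settings. Leaving out dim genes removes Muc5ac, Spdef and Foxa3 by construction. With only the groups compared, 2 genes passed at 5 ppm against 0 ppm (Slc26a4 beside Agr2) and 0 at 20 ppm against 10 ppm, and with array weights 1 passed at 40 ppm against 20 ppm. The slope passed for 1 gene instead of 2 on linear dose and on its rank. Causes were not tested.

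Leaving out single arrays gave 3 to 4 members at 10 ppm against 0 ppm, 1 to 2 at 40 ppm, 3 to 4 at 120 ppm, 0 to 1 at 5 ppm against 1 ppm (1, Agr2, without replicate 3 at 5 ppm), 0 to 1 at 20 ppm against 10 ppm, 4 to 5 at 120 ppm against 40 ppm and 1 to 2 slopes; the remaining counts did not move. Foxa3 at 120 ppm against 40 ppm was lost in 6 of 10 such fits. Of the 7 genes paired with Clca1, 6 passed as given and 4 to 6 under alternatives.

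The replicate numbers were not taken to pair the arrays, since the labels name nothing shared and not every same-numbered pair correlated over 0.1. Deviations of same-numbered arrays correlated at 0.096 on average (-0.508 to 0.639, 53 of 105 pairs over 0.1), those of different numbers at -0.024, and 13 of 35 arrays correlated best with their own number, more than the 1 in 5 that unpaired numbers would give, which is a hint from the data only. With the replicate block, 1 gene instead of 2 passed at 40 ppm against 0 ppm.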
